A study of Homo sapiens with 28 samples.

Results

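UNC5B encodes a transmembrane receptor for netrin-1. It takes part in repulsive axon guidance and in the patterning of blood vessels, and it is counted among the dependence receptors, which can trigger cell death when their ligand is missing. A gene of this kind is controlled in part by distal regulatory DNA, and the ARID1A- or ARID1B-containing canonical BAF complex (cBAF) moves and evicts nucleosomes at such elements. The data described here are the accessible sites in a window of 1150000 bp around UNC5B, chr10:72000001-73150000 (hg19), in which UNC5B lies at about chr10:72972298-73062621. The window was chosen by measured values of these libraries: it holds a site that is strong with an empty vector and weak with wild-type ARID1A or ARID1B, beside many sites that appear with the wild-type proteins. Contrasts between the wild-type and Empty_Vector libraries inside the window are therefore given as descriptions, with no test.

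By the titles of the series and its samples, open chromatin was profiled by ATAC-seq, in which a transposase tags accessible DNA, in AN3CA cells, an established line of human endometrial carcinoma. The series' design text instead describes CUT&Tag, which maps bound proteins or histone marks, and the lists were taken as ATAC-seq on the strength of the titles. The series title concerns condensation of cBAF governed by ARID1A and ARID1B. The labels do not describe the state of the cells' own ARID1A and ARID1B genes, and nothing in them states that replicates are independent cultures. P-values across constructs therefore reflect the scatter of these particular libraries, which may be technical. The p-value between altered ARID1B and altered ARID1A reflects the spread between construct means. All values come from lists of peaks without read counts, so the sequencing depth is unknown.

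The 28 libraries fall into 13 groups by title. Altered ARID1B came in 4 forms with 2 libraries each: ARID1B_A457_G461del, ARID1B_Block13del, ARID1B_Block9del and ARID1B_S320_G327del. Altered ARID1A came in 6 forms, also with 2 libraries each. The labels describe ARID1A_delIDR1 and ARID1A_CBR as truncated proteins, ARID1A_DBDmut as mutated in its ARID domain and ARID1A_DDX4 as a fusion that includes a disordered region of DDX4, while ARID1A_AQGscramC1C2 and ARID1A_Y42S are known here by title alone. Wild-type ARID1B (ARID1B_WT) and wild-type ARID1A (ARID1A_WT) had 2 libraries each, and Empty_Vector had 4. In 10 libraries, those of ARID1A_AQGscramC1C2, ARID1A_Y42S, ARID1B_A457_G461del, ARID1B_Block13del and ARID1B_Block9del, the genotype label names the empty vector while the title names the construct. They were grouped by title. The date codes in the peak names divide the libraries into 6 runs. ARID1A_CBR, ARID1A_DBDmut, ARID1A_delIDR1, ARID1A_WT and Empty_Vector each have 1 library in run A and 1 in run B. Run C holds ARID1B_S320_G327del, ARID1B_WT and the other 2 Empty_Vector libraries. ARID1A_DDX4 is alone in run D and ARID1A_AQGscramC1C2 in run F. Run E holds the 4 remaining constructs, and runs D, E and F contain neither wild-type nor Empty_Vector libraries.

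The deposited lists held 19489 to 76589 peaks, and 15 to 80 of them lay in the window. Long lists contain more weak peaks, so all were shortened to 19433 peaks, as many as the smallest list had on chromosomes 1 to 22 and X, keeping the most significant. A rank of 1 is the most significant peak of a library. Peaks of all libraries were merged into 32972 regions called in at least 2 libraries, of which 39 lay in the window. A region counts as gained when all 4 wild-type libraries and no Empty_Vector library called it, and as lost in the opposite case. At the window's low edge, the last region outside (chr10:71991996-71993872) was called by all 28 libraries, and the first inside was a gained site. At its high edge, the last region inside (chr10:73143897-73144536) was called by 2 wild-type and 4 Empty_Vector libraries, and the next one outside (chr10:73156103-73157357) by 0 wild-type libraries and 1 Empty_Vector library.

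Of the 39 regions, 9 were gained, which is 23.1% of the window against 5.78% of all regions. Lost regions numbered 2, which is 5.13% of the window against 2.27% of all regions, and 4 regions of the window were lost without Empty_Vector 3. Another 9 were called in all 28 libraries, 23.1% of the window against 30.1% of all regions. The remaining 19 showed other patterns. Because the window was selected on gained and lost sites, these shares only describe what was selected. In the lists as deposited, which differ in length, 26 of 90 regions of the window were gained where the percentage over all regions was 18.2, and 0 were lost where it was 0.0828.

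**Figure D1:**
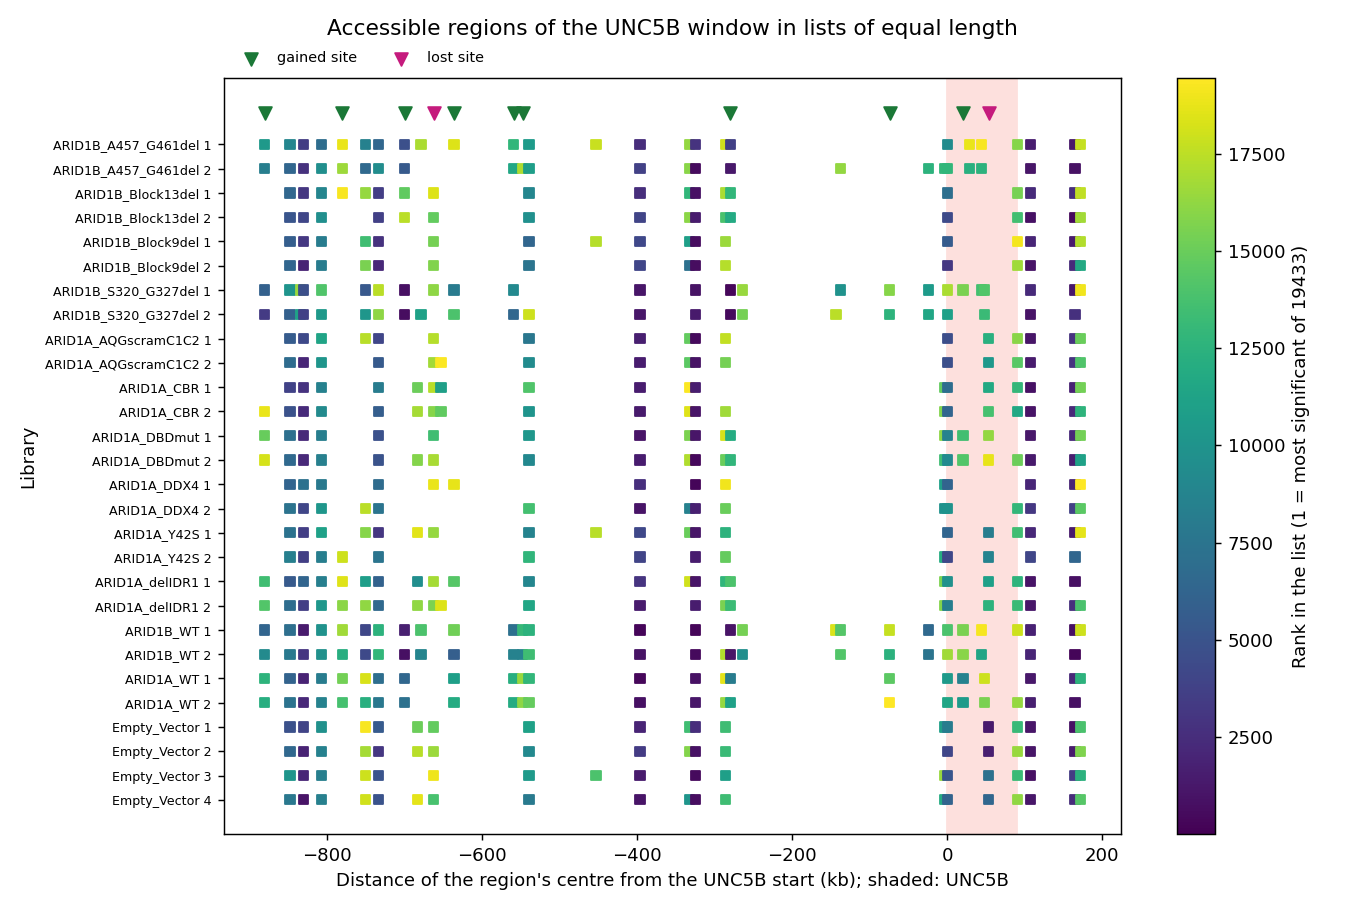
Regions of the UNC5B window in each library. The x axis gives the distance of a region's centre from the UNC5B start in kb, each row is a library, and each square is a region called within the 19433 most significant peaks, coloured by rank. Triangles mark the 9 gained and 2 lost sites. Columns of squares at the gained sites run through the wild-type rows and are missing from the 4 Empty_Vector rows.

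The 9 gained sites were 636 to 1794 bp wide, with a median of 974 bp. Of these, 8 lay before the gene on the side of its start, and 1 lay inside it. In the RefSeq gene table for GRCh38.p14, used for gene order alone, PALD1, PRF1, ADAMTS14, TBATA, SGPL1 and PCBD1 precede UNC5B, and SLC29A3 and CDH23 follow it. Positions of those genes, and of exons and introns, in hg19 were not used here. So the sites are described by their distance from the UNC5B start, and no site is assigned to a gene other than UNC5B.

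The site chr10:72691884-72692835, 280 kb before UNC5B, had the highest ranks with ARID1B proteins. Its ranks were 357 and 527 in ARID1B_S320_G327del, 3716 and 1220 in ARID1B_A457_G461del, and 12823 and 11821 in ARID1B_Block13del. Among altered ARID1A forms it was called with ARID1A_DBDmut at ranks 11960 and 12751 and with ARID1A_delIDR1 at 13963 and 13241. It ranked 1037 and 992 in ARID1B_WT, 8066 and 11015 in ARID1A_WT, and nowhere in any Empty_Vector list, trimmed or whole. So ARID1B_S320_G327del placed the site above ARID1B_WT in both libraries. Block9del of ARID1B had peaks there only below the common length, at ranks 22602 and 27279 of its whole lists. ARID1A_AQGscramC1C2, ARID1A_DDX4 and ARID1A_Y42S had no peak there at any length.

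The site chr10:72271755-72272580, 700 kb before UNC5B, was called by altered ARID1B and by no altered ARID1A form. Its ranks were 822 and 648 in ARID1B_S320_G327del, 4746 and 5423 in ARID1B_A457_G461del, and 14676 and 17403 in ARID1B_Block13del. In the wild types it ranked 1686 and 785 with ARID1B_WT and 6380 and 7152 with ARID1A_WT, and no Empty_Vector list held it. At full length, 8 of 12 altered ARID1A libraries had a peak over it, between rank 19840 in ARID1A_delIDR1 and rank 56346 in ARID1A_CBR. The absence from the altered ARID1A lists of equal length is thus a matter of rank for these libraries.

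The wild-type proteins differed at single sites. At 5 of the 9 gained sites both ARID1B_WT libraries ranked the site better than both ARID1A_WT libraries, at 1 site both ARID1A_WT libraries ranked it better, and at 3 sites the ranks overlapped. Over all gained regions the percentages were 55.5 for the first pattern and 11.0 for the second, so the window was near the background in both. The site ranked better in ARID1A_WT was the gained site inside UNC5B, chr10:72991909-72993702, 20.5 kb from the gene's start. Its ranks were 15489 and 15958 in ARID1B_WT, and 8639 and 10617 in ARID1A_WT. Both libraries of ARID1A_DBDmut called it, at 13563 and 14189, as did 1 library of ARID1B_S320_G327del at 15503, while no Empty_Vector list held it even at full length. With 2 libraries per wild type, and the wild types in different runs, protein and run cannot be told apart here.

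The farthest of the remaining gained sites, chr10:72091234-72092207, 881 kb before the gene, was called by 4 altered ARID1B and 5 altered ARID1A libraries, with ranks of 5956 and 3409 in ARID1B_S320_G327del, 6233 and 9246 in ARID1B_WT, and 12578 and 12160 in ARID1A_WT. The site chr10:72412806-72413441 was called by 4 altered ARID1B libraries, those of ARID1B_A457_G461del and ARID1B_S320_G327del, and by 0 altered ARID1A libraries. The site nearest to the gene from outside, chr10:72897544-72898833, 74.1 kb before it, was called among altered forms in the 2 libraries of ARID1B_S320_G327del alone, at 15868 and 12573, and ranked 17716 and 12430 in ARID1B_WT and 14508 and 19398 in ARID1A_WT. That last rank lies close to the common length of 19433, so this call in ARID1A_WT rests on few places in the list.

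The site chr10:72191564-72192534 was called by 3 altered ARID1B and 3 altered ARID1A libraries and ranked between 12162 and 16690 in the 4 wild-type libraries. It was absent from both ARID1B_S320_G327del lists of equal length and present in their whole lists at ranks 21525 and 24900. The site chr10:72423953-72425157 was called by 1 altered library, ARID1B_A457_G461del 2 at rank 17070, and 1 Empty_Vector list held it at full length, at rank 41115. The site chr10:72335192-72336681 was the gained site with the most Empty_Vector peaks at full length, in 3 of 4 libraries at ranks 26867 to 38116, against 5822 to 15201 in the wild types. The other 7 gained sites had no Empty_Vector peak at any length.

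**Figure D2:**
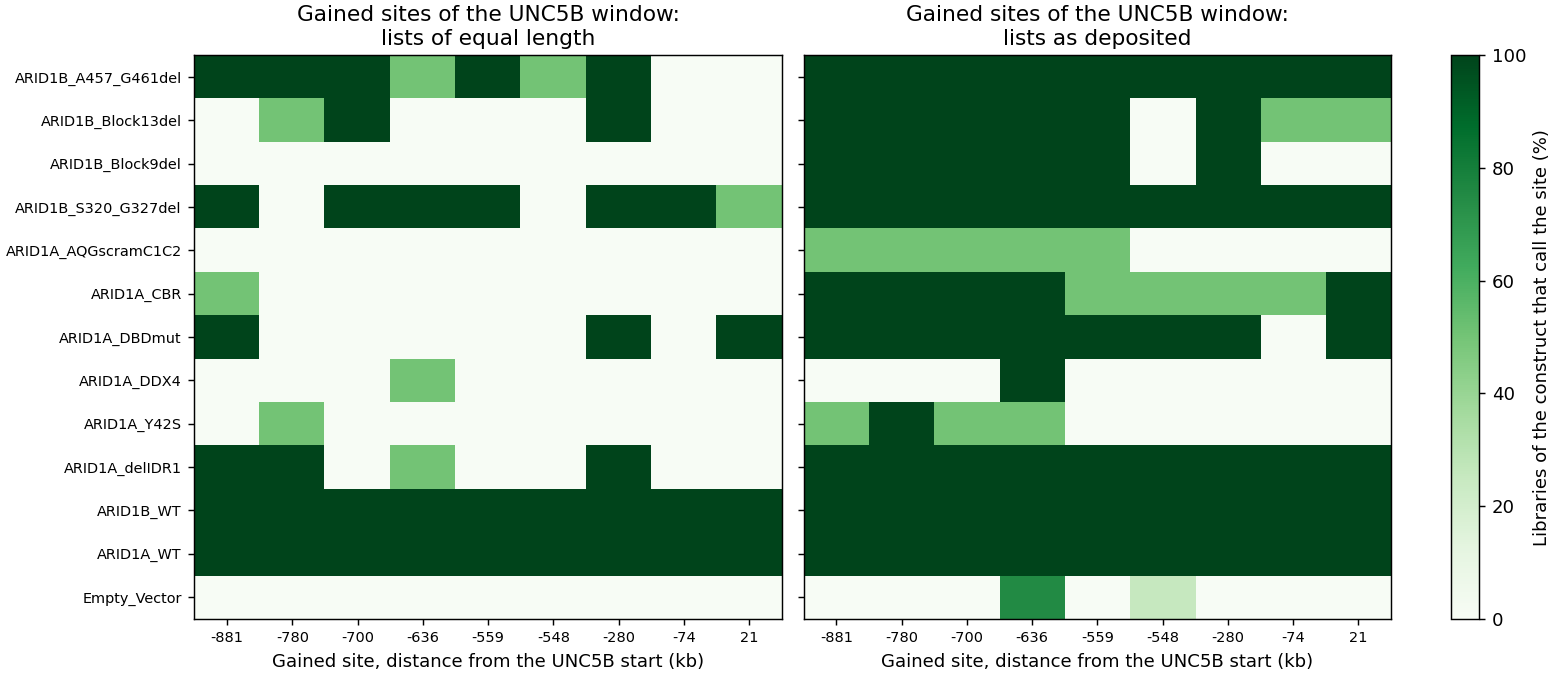
Share of a construct's libraries that called each of the 9 gained sites of the UNC5B window (n = 2 per construct, 4 for Empty_Vector). Columns are sites by distance from the UNC5B start in kb, and colour gives the percentage, with lists of equal length on the left and lists as deposited on the right. ARID1B_S320_G327del, ARID1B_A457_G461del and ARID1A_delIDR1 have all 9 sites at full length, while ARID1A_DDX4 has 1.

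The altered constructs differed in how many of the 9 gained sites they called in lists of equal length. ARID1B_S320_G327del called 7 and 6 sites, ARID1B_A457_G461del called 6 and 6, ARID1B_Block13del called 3 and 2, and ARID1B_Block9del called 0 and 0. Among altered ARID1A forms, ARID1A_delIDR1 called 4 and 3, ARID1A_DBDmut called 3 and 3, and the libraries of ARID1A_CBR, ARID1A_DDX4, ARID1A_Y42S and ARID1A_AQGscramC1C2 called at most 1 each. Replicates of a construct differed by at most 1 site. The spread between constructs within a paralogue was wide: the mean over the 4 altered ARID1B constructs was 41.7% ± 34.1 (SD over constructs) and over the 6 altered ARID1A constructs 14.8% ± 16.7. No p is given for these shares, since the 9 sites were chosen together with results of these data known.

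A similar order of constructs appeared at the gained regions outside the window, at other levels. ARID1B_S320_G327del called 72.2% ± 7.86 of the gained sites in the window (SD, n = 2) and 94.7% ± 0.522 of those outside it. For ARID1B_A457_G461del the shares were 66.7% in the window and 81.9% outside. ARID1B_Block13del called 27.8% in the window and 31.1% outside. For ARID1A_DBDmut the shares were 33.3% and 47.0%, and for ARID1A_CBR 5.56% and 19.4%. ARID1A_delIDR1 had 38.9% and 44.7%, so it stood above ARID1A_DBDmut in the window and below it outside. The shares were 5.56% and 7.25% for ARID1A_DDX4, and 5.56% and 4.48% for ARID1A_Y42S. They were 0% and 3.45% for ARID1B_Block9del, and 0% and 2.45% for ARID1A_AQGscramC1C2. With 9 sites, 1 site moves a library's window share by 11.1 percentage points, so these window shares are coarse. Both ARID1B_S320_G327del libraries called 6 of the 9 window sites, and 91.4% of all gained regions. No library of ARID1A_AQGscramC1C2, ARID1A_DDX4 or ARID1B_Block9del called 8 of the 9, where 87.5% of all gained regions showed that pattern.

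**Figure D3:**
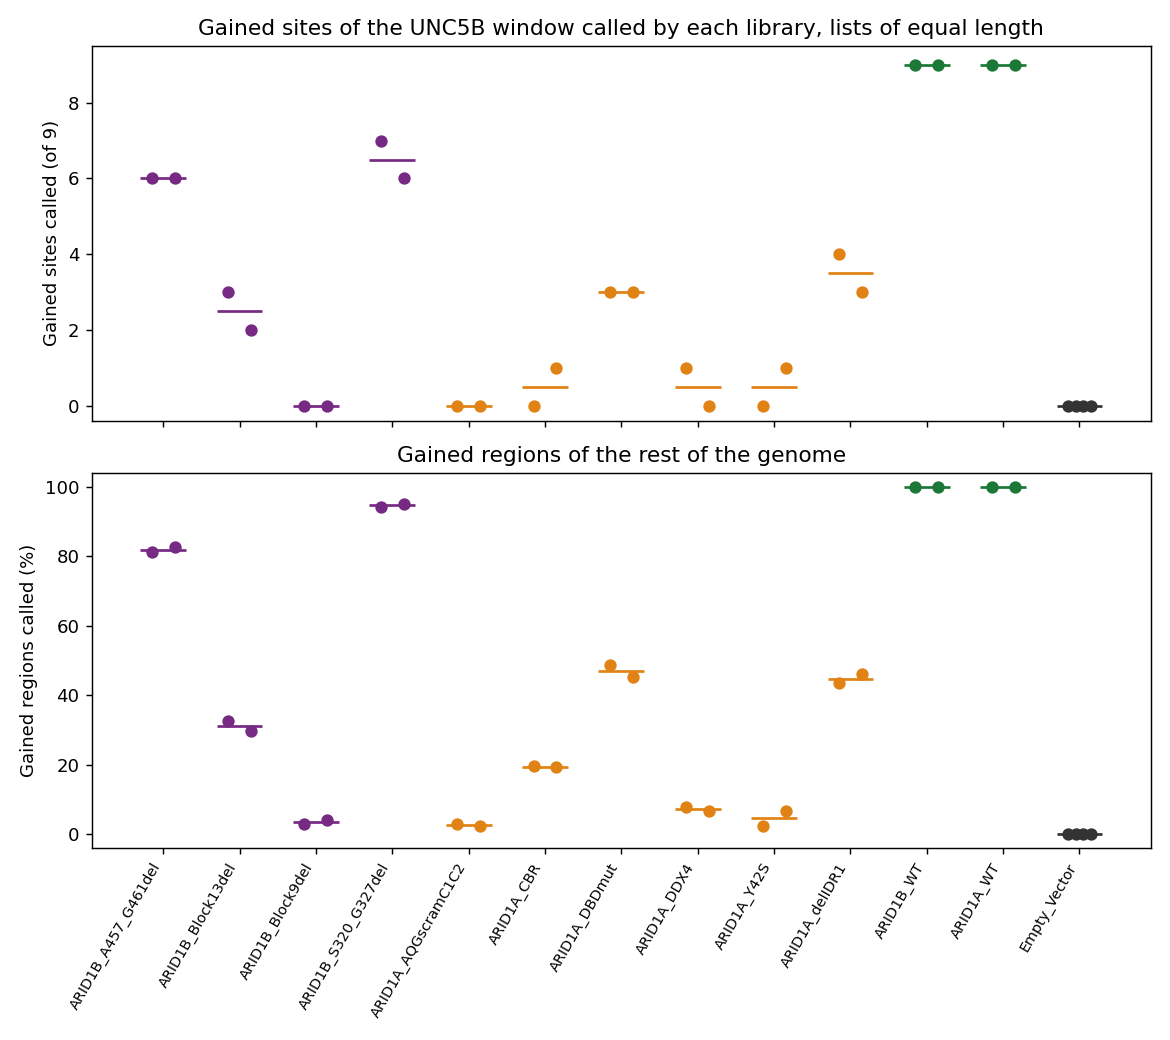
Gained regions called by each library in lists of equal length. Points are libraries, bars are group means, and the upper panel counts the 9 sites of the UNC5B window while the lower panel gives the percentage of gained regions elsewhere. Purple marks altered ARID1B, orange altered ARID1A, green wild type and black Empty_Vector. Wild-type and Empty_Vector libraries sit at the limits because they define the gained regions.

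List length moved with these counts. ARID1A_delIDR1 and ARID1B_A457_G461del had all 9 sites in their whole lists of 43190 to 55320 peaks, and ARID1B_S320_G327del in 63438 and 70321 peaks. In the whole lists, ARID1A_DBDmut had 8 sites in each library, ARID1B_Block13del 7 in each and ARID1B_Block9del 6 in each. ARID1A_CBR had 5 and 9 sites in lists of 45159 and 66013 peaks, and ARID1A_AQGscramC1C2 had 0 and 5 in 28931 and 36160 peaks. ARID1A_Y42S had 4 and 1 in 28883 and 19489 peaks, and ARID1A_DDX4 had 1 in each. The 4 Empty_Vector libraries held 0 to 2 of the sites in 24573 to 49528 peaks. ARID1B_Block9del, with 30137 and 30140 peaks, had more of the sites than any Empty_Vector library, with shorter lists than Empty_Vector 1 and 2, and its peaks there stood below the common length. The share of all gained regions that each library held in its whole list was not computed. These whole-list counts therefore describe the 9 sites and do not set the window apart from other gained regions.

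The weakened site lies inside UNC5B at chr10:73025390-73026685, 53.7 kb from the gene's start, 36.6 kb from its end and 33.2 kb from the nearest gained site. It was absent from the equal-length lists of all 4 wild-type libraries, against ranks of 1318, 1622, 7175 and 6414 in Empty_Vector 1 to 4. Empty_Vector 1 and 2 (runs A and B) ranked it far better than Empty_Vector 3 and 4 (run C), and all 4 called it. In the whole lists of the wild types the site was still present. It ranked 29875 and 19581 with ARID1B_WT, at fold enrichments of 3.31 and 4.02, and 28872 and 22538 with ARID1A_WT, at 2.86 and 3.05. In the Empty_Vector libraries its fold enrichments were 3.89, 3.71, 5.43 and 5.00. The fold enrichment is the authors' own value over the background that the peak caller estimated, and its range in wild type (2.86 to 4.02) overlapped that in Empty_Vector (3.71 to 5.43) over all runs. Within each run the wild-type values were the lower ones: 2.86 against 3.89 in run A, 3.05 against 3.71 in run B, and 3.31 and 4.02 against 5.43 and 5.00 in run C. The peak was also narrower with wild type, 359 to 571 bp against 736 to 1296 bp in Empty_Vector. The wild-type lists were also longer, 59826 to 76589 peaks against 24573 to 49528 in Empty_Vector, and the part of list length in this difference of rank was not tested.

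The altered constructs were not part of the contrast that defines the site, although the site was chosen with earlier results of these data known. Calls of the site differed by paralogue, with 1 exception. None of the 8 altered ARID1B libraries called it in lists of equal length. In whole lists it ranked 21208 and 26773 in ARID1B_Block13del, 25195 and 23261 in ARID1B_Block9del and 53163 in 1 library of ARID1B_S320_G327del, while the other library of that construct and both of ARID1B_A457_G461del had no peak there. Of the altered ARID1A libraries, 10 of 12 called the site. Its ranks were 8124 and 8665 in ARID1A_Y42S, 12306 and 10375 in ARID1A_AQGscramC1C2, 10944 and 12487 in ARID1A_delIDR1, 11698 and 13686 in ARID1A_CBR, and 16298 and 18678 in ARID1A_DBDmut. The exception was ARID1A_DDX4, which had no peak there at any length. Every altered ARID1A library that called the site ranked it below all 4 Empty_Vector libraries. Inside runs A and B, the ranks of ARID1A_delIDR1, ARID1A_CBR and ARID1A_DBDmut lay between the absence in ARID1A_WT and the ranks of 1318 and 1622 in Empty_Vector.

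With uncalled sites set to rank 19434, the rank differed across the 10 altered constructs beyond the spread between replicates (permutation test of F, 100000 permutations, F = 47.1, n = 20 libraries, p = 9e-05, adjusted p = 0.00018 over 4 tests). In the 4 altered ARID1B constructs and ARID1A_DDX4, the set rank fixed the replicate spread at 0, which raises F. Except for ARID1A_CBR, ARID1A_DBDmut and ARID1A_delIDR1, both libraries of a construct share a run, so F includes any difference between runs. The mean rank was 19434 over the 4 altered ARID1B constructs and 13511 ± 4140 over the 6 altered ARID1A constructs (SD over constructs), a difference of 5923 places (two-sided exact permutation test over construct means, p = 0.0333, adjusted p = 0.0444). The site was chosen with earlier results of these data known, so the p-values of both tests are descriptive. Altered ARID1B lies in runs C and E, while 5 of the 6 altered ARID1A constructs lie in other runs, and Empty_Vector itself ranked the site at 1318 and 1622 in runs A and B and at 7175 and 6414 in run C, so outside run E paralogue and run cannot be told apart. The call between paralogues was lost with peaks ranked by fold enrichment (460 places, adjusted p = 1), with lists of 9716 peaks (220 places, adjusted p = 1), with lists of equal covered length (2337 places, adjusted p = 0.219), with a 50% overlap (3759 places, adjusted p = 0.2) and without ARID1A_delIDR1 1 (5795 places, adjusted p = 0.0508), all by the exact permutation test. The call across constructs was lost with ranking by fold enrichment (F = 1.45, adjusted p = 0.0698) and with lists of 9716 peaks (F = 23.9, adjusted p = 0.105), both by the permutation test. In run E, the only run with altered forms of both paralogues, the difference was 11040 places between 3 ARID1B constructs and ARID1A_Y42S (exact permutation test, p = 0.25, the smallest that 4 splits allow).

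**Figure D4:**
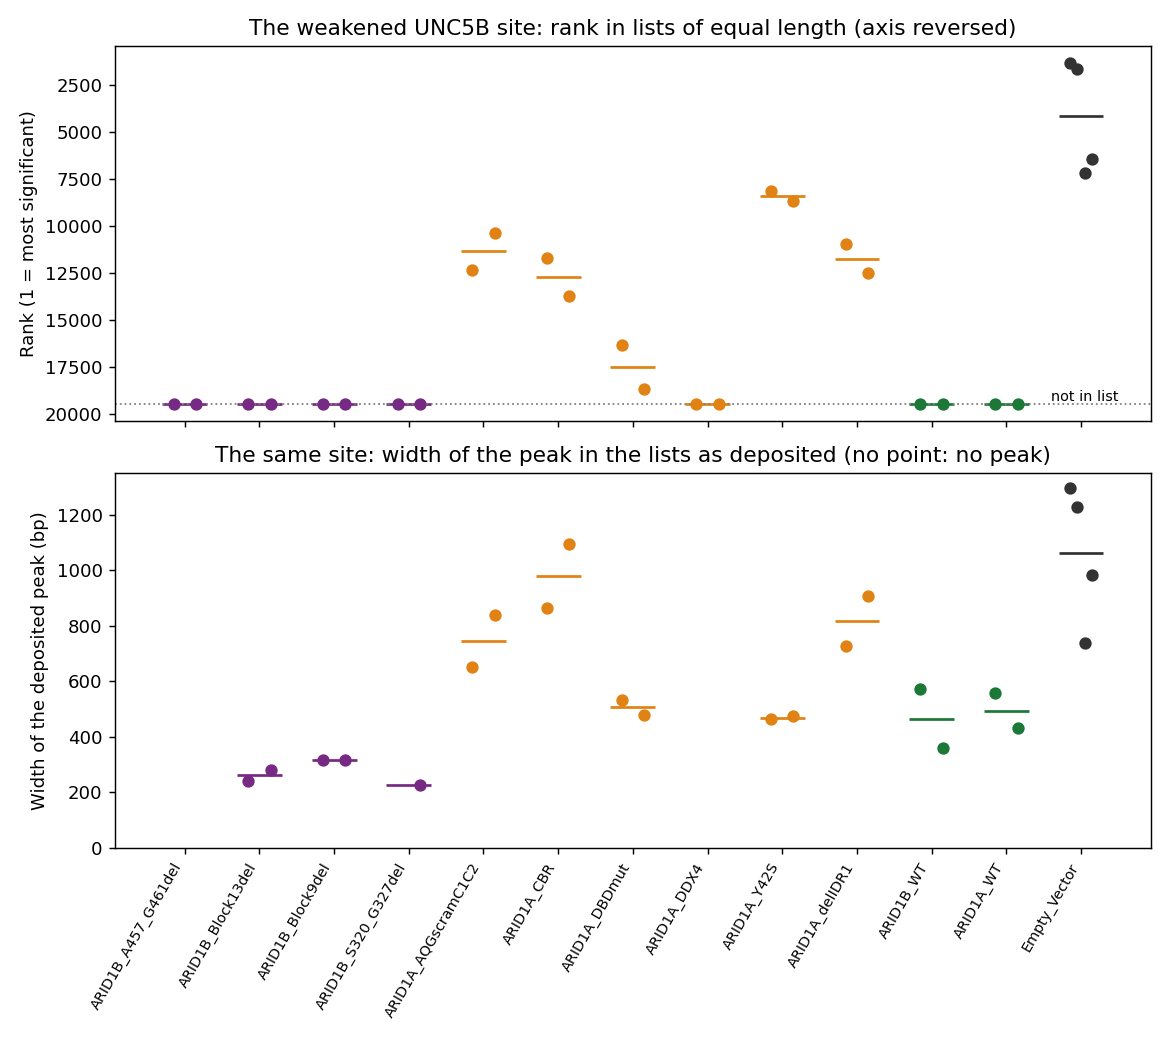
The weakened site in UNC5B. The upper panel gives its rank in lists of equal length (axis reversed, dotted line at rank 19434 for libraries without a call), and the lower panel the width of its peak in bp in the lists as deposited. Points are libraries, bars are group means, and colours mark altered ARID1B (purple), altered ARID1A (orange), wild type (green) and Empty_Vector (black). All altered ARID1B and wild-type points lie on the dotted line, and peaks were 225 to 317 bp wide in altered ARID1B, 359 to 571 bp in wild type and 736 to 1296 bp in Empty_Vector.

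The width of the peak in the lists as deposited also differed between altered ARID1B and altered ARID1A. Where present, it was 225 to 317 bp in 5 altered ARID1B libraries and 463 to 1095 bp in 10 altered ARID1A libraries, with 359 to 571 bp in wild type and 736 to 1296 bp in Empty_Vector. The ranges of altered ARID1B and altered ARID1A did not overlap. List length and run also vary among these libraries, and their part in the width was not tested. Within altered ARID1A, width and rank did not run in the same order: ARID1A_Y42S had the best ranks and peaks of 463 and 474 bp, and ARID1A_CBR had peaks of 863 and 1095 bp. The 2 ARID1B constructs that called few gained sites also lacked this site in lists of equal length: ARID1B_Block9del called 0 gained sites in the window, and it still called 72.0% and 75.9% of all 750 lost regions of the genome. No altered ARID1B library called 61 of the 750 lost regions, 8.13%. For 5 of the 750, 0.667%, the same held and at least 10 of 12 altered ARID1A libraries called the region, and the UNC5B site is 1 of these 5. This pattern was read off the site itself and is a description.

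Over the genome outside the window, the 5 regions whose ranks across the 28 libraries were most like those of the weakened site reached Spearman correlations of 0.879 to 0.927. The closest was chr19:47287775-47288509, also a lost region, called by 10 altered ARID1A, 0 altered ARID1B, 0 wild-type and 4 Empty_Vector libraries. It was followed by a lost region of chromosome 8 at 0.905, called by 8 altered ARID1A, 0 altered ARID1B, 0 wild-type and 4 Empty_Vector libraries. The lost regions chr6:43878230-43879286 at 0.899 and chr6:19734455-19737010 at 0.889 came next. The fifth, chr12:53552921-53553795 at 0.879, was not lost: 12 altered ARID1A, 7 altered ARID1B, 4 wild-type and 4 Empty_Vector libraries called it, so its likeness lies in the order of ranks and not in the calls. Tied ranks of uncalled libraries and the shared runs enter each of these values.

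The other lost site of the window, chr10:72309386-72310145, 663 kb before UNC5B, was different. It was called by 5 altered ARID1B and 10 altered ARID1A libraries. In the whole wild-type lists it ranked 21085 and 33529 with ARID1B_WT and 29783 and 21380 with ARID1A_WT, against 14796, 16492, 18961 and 13801 in Empty_Vector. ARID1B_Block9del, which did not call the weakened UNC5B site, called this one at 15367 and 15749. The Empty_Vector ranks approach the common length of 19433, so this loss spans fewer places than that of the UNC5B site. Fold enrichments overlapped, at 4.67 to 6.47 in wild type and 4.50 to 6.43 in Empty_Vector. ARID1A_WT was lower within its runs, 4.67 against 6.43 in run A and 4.89 against 5.19 in run B. In run C, ARID1B_WT had 6.47 and 5.58 against 4.50 and 6.25 in Empty_Vector, so there the loss was seen in rank and not in fold.

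The region over the UNC5B start, chr10:72971958-72974239, was called in all 28 libraries. Its ranks were 13931 and 16645 with ARID1B_WT and 10501 and 11400 with ARID1A_WT, against 8080, 4038, 5119 and 6084 in Empty_Vector. All 4 wild-type libraries thus ranked it below every Empty_Vector library. Fold enrichments were 3.73 to 4.06 in wild type and 4.12 to 5.83 in Empty_Vector, while peak widths were 2146 to 2246 bp in wild type and 1277 to 2008 bp in Empty_Vector. The peak over the start was wider and lower in fold with wild type, whereas that at the weakened site was narrower. Among altered forms, ARID1B_S320_G327del (16978 and 10961) and ARID1B_A457_G461del (9271 and 12814) ranked it low, and ARID1B_Block9del (5579 and 3131), ARID1B_Block13del (7045 and 4382) and ARID1A_AQGscramC1C2 (4629 and 4669) ranked it inside the Empty_Vector range or above it. The altered ARID1A libraries spanned 4108 to 10010.

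**Figure D5:**
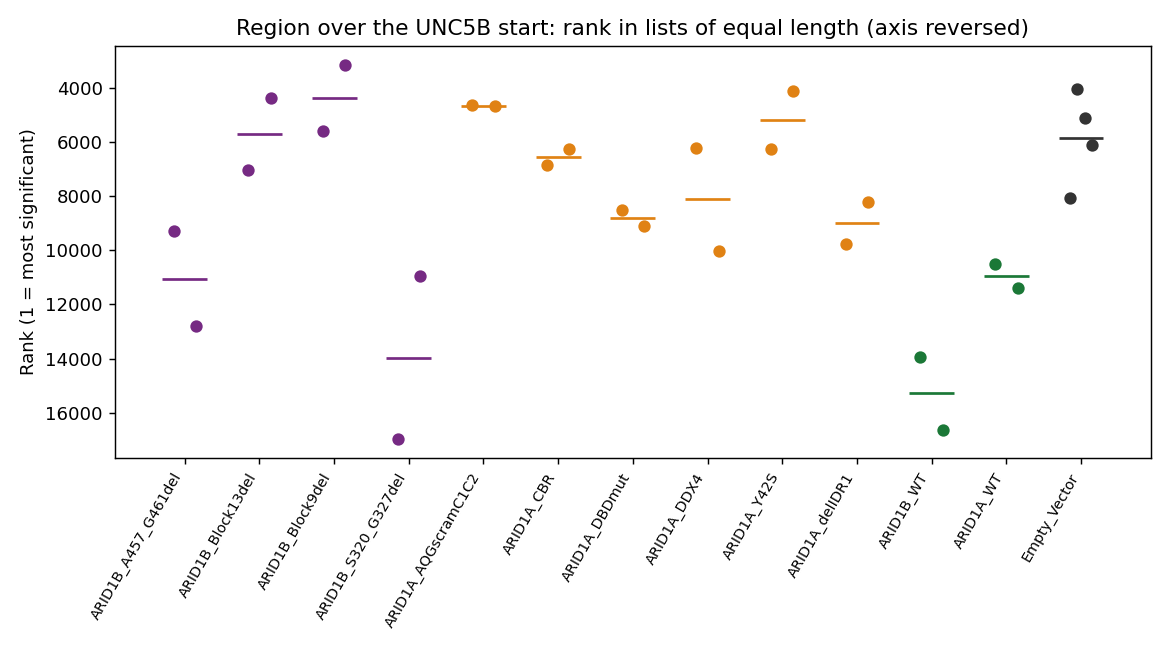
Rank of the region over the UNC5B start in lists of equal length, by construct (axis reversed). Points are libraries and bars are group means, with altered ARID1B in purple, altered ARID1A in orange, wild type in green and Empty_Vector in black. The 4 wild-type points lie at 10501 to 16645 and the 4 Empty_Vector points at 4038 to 8080.

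Of the 11 window regions called by all wild-type and all Empty_Vector libraries, 4 ranked worse in every wild-type library than in any Empty_Vector library, where 5.88% of such regions of the genome did. Besides the UNC5B start, and chosen after their values were seen, these were chr10:72237572-72239945 (6972 to 12792 in wild type, 3047 to 5472 in Empty_Vector), chr10:72431779-72433640 (12474 to 14839 in wild type, 7900 to 11099 in Empty_Vector) and chr10:73078661-73080201 (1246 to 2013 in wild type, 782 to 1154 in Empty_Vector). In the other direction, 1 region, chr10:72575174-72576678, 396 kb before the gene, ranked better in every wild-type library (279 to 964) than in any Empty_Vector library (1056 to 3365), where the percentage over the genome was 2.20. Among altered forms it ranked 1081 to 4205 in ARID1B libraries and 1013 to 4217 in ARID1A libraries. So these 11 regions held shifts of rank in both directions. In fold enrichment, wild type and Empty_Vector overlapped at chr10:72575174-72576678 (6.66 to 8.53 against 5.86 to 8.63). They also overlapped at chr10:72431779-72433640 (4.64 to 6.74 against 5.77 to 6.83) and chr10:73078661-73080201 (6.84 to 8.41 against 6.54 to 9.46). At chr10:72237572-72239945 they did not (3.67 to 3.98 against 4.40 to 5.41).

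The 5 regions with the best mean rank in the window were called in all 28 libraries. The best by mean rank over all 28 libraries was chr10:72647199-72648866, 324 kb before UNC5B, at 554 to 2858 in altered ARID1B, 276 to 1727 in altered ARID1A, 294 to 1183 in wild type and 483 to 2508 in Empty_Vector. It was followed by chr10:73078661-73080201, 107 kb beyond the gene's start, and chr10:73136567-73137715, which ranked 288 to 2170 in wild type and 898 to 3356 in Empty_Vector. These 2 sites lie past the end of UNC5B, and the second reached rank 6353 in the altered ARID1A library ranking it lowest. The region chr10:72141268-72142845 ranked 1871 to 4644 in altered ARID1B, 2062 to 7232 in altered ARID1A, 1397 to 2968 in wild type and 1023 to 3915 in Empty_Vector. The wild-type and Empty_Vector ranges overlapped at 3 of these 5 strongest regions, the exceptions being chr10:72575174-72576678 and chr10:73078661-73080201.

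Of the 6 regions inside the UNC5B interval, 3 are not yet described, and each was called by a few constructs. At chr10:73015881-73016541, 43.9 kb from the gene's start, ranks were 19225 and 12488 in ARID1B_A457_G461del and 13624 in ARID1B_S320_G327del 1, with 19152 and 11439 in ARID1B_WT and no call in ARID1A_WT or Empty_Vector. At chr10:73019704-73020872, 48.0 kb from the start and 1169 bp wide, both ARID1B_S320_G327del libraries (14125 and 13201) and both ARID1A_WT libraries (17939 and 15503) called it, and ARID1B_WT held it only in whole lists, at 24652 and 30402. At chr10:73001127-73001876 both ARID1B_A457_G461del libraries alone called it, at 18752 and 12362, while all 4 wild-type libraries and 1 Empty_Vector library had it in their whole lists, at ranks of 25301 to 34453 in wild type and 43450 in Empty_Vector 2. So between the gene's start and the weakened site the interval held 4 regions that no Empty_Vector library called in lists of equal length. The calls at these 3 regions ranked between 11439 and 19225.

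Regions called in both ARID1B_WT libraries and in no ARID1A_WT or Empty_Vector library numbered 5 of 39 in the window, where 4.63% of all regions showed this. The opposite type, ARID1A_WT without ARID1B_WT or Empty_Vector, was 1 of 39, chr10:73019704-73020872, where the percentage was 1.63. Of the first type, and chosen after their values were seen, chr10:72947272-72948222 lay nearest to the gene from outside, 24.6 kb before its start. It ranked 10581 and 11488 in ARID1B_S320_G327del, 12520 in ARID1B_A457_G461del 2, and 6539 and 7463 in ARID1B_WT. ARID1A_WT had it at 25136 and 31395 of its whole lists, and no Empty_Vector list held it. The others were chr10:72293114-72293599, chr10:72707793-72708385, chr10:72834324-72835392 and chr10:73015881-73016541, and all 5 were present in the whole ARID1A_WT lists below the common length. No altered ARID1A library called any of the 5 in lists of equal length, where 93.6% of all regions of this type had no such call.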

How the data were processed

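The 28 deposited broadPeak lists, 1 for each ATAC-seq library of AN3CA cells, were used, which means that calling was done library by library. The submitters' processing notes name MACS2, SAMtools 0.1.19, Picard 2.8.0, Bowtie2 and bcl2fastq, and build hg19. For the caller's options, its control and any cut-site shift, the sources used here give nothing. The authors deposited for every peak a fold enrichment (a ratio), the -log10 of its p-value and of its q-value, and a score that is a rescaled -log10 q-value. Across the deposited lists, the minimum -log10 q-value was 3.00 to 3.03. The lists hold no read counts, so the depth is unknown.

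From these, peaks on chromosomes 1 to 22 and X were ranked by -log10 p-value, cut to 19433 per library, merged, and kept where at least 2 libraries called a region by at least 1 bp. An uncalled site had rank 19434. The altered constructs were compared with each other through the F statistic with 100000 permutations of libraries. Paralogues were compared with an exact permutation test over 210 splits of 10 construct means. Adjustment followed Benjamini and Hochberg over 4 tests, 2 on the rank of the weakened site and 2 on the share of gained sites, whose p-values are not given because the sites were chosen together. Sites named are all gained and lost regions of the window, all regions in UNC5B and the 5 with the best mean rank. Alternatives were whole lists, 9716 peaks, ranking by fold, equal covered length, a 50% overlap, single runs and each library left out. The statistics were tested on simulated data in Python 3.11.15 with numpy 2.4.6 and scipy 1.17.1. The values simulated for the permutation tests had no ties at a set rank and no runs, unlike the ranks used here. The window, sites and lists were chosen with earlier results of these data known. Sequences, hg19 gene models, and the other netrin pathway genes that would need them, were not used here.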

Additional observations from a re-analysis of the deposited data

Results flagged for a closer look

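The share of a library's deposited peaks that lay in the window was 0.0882% in Empty_Vector 4, and it stood apart from the other 3 Empty_Vector libraries, at 0.0817%, 0.0808% and 0.0814%. This was the only library set apart by the gap to its neighbours among 23 sets of values examined, where chance gives about 1 in 20.

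The rank of the weakened UNC5B site differed between altered ARID1B and altered ARID1A constructs by 5923.25 places, with 19434 on average in ARID1B and 13511 in ARID1A (exact permutation test, adjusted p = 0.0444). The result was flagged because the rank differed between the altered constructs of the paralogues. The value 19434 is the rank set for an uncalled site, and ARID1A_DDX4 also had it. Outside run E, paralogue and run cannot be told apart. The call was kept in 22 alternatives and lost in 7. Those 7 included ranking by fold enrichment and lists of 9716 peaks. They also included equal covered length (adjusted p = 0.219) and a 50% overlap (adjusted p = 0.2), both by the exact permutation test. All 8 altered ARID1B libraries lacked the site in lists of equal length, and 10 of 12 altered ARID1A libraries called it.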

How the results depend on the processing

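The 9 gained sites became 26 with whole lists, 1 with lists of 9716 peaks, 2 with ranking by fold enrichment, 1 with equal covered length and 14 for ARID1B_WT against Empty_Vector of its run; they stayed at 9 whichever wild-type or Empty_Vector library was left out. The 2 lost sites became 0 with whole lists and with ranking by fold, 1 with a 50% overlap and 4 for ARID1A_WT against Empty_Vector of its runs, and ranged from 2 to 4 with a library left out (4 without Empty_Vector 3). The weakened site's mean rank, wild type minus Empty_Vector, was 15302 places; it was 21084 with whole lists, 5585 with 9716 peaks, 1597 with ranking by fold and 8152 with equal covered length, always in the same direction. Across altered constructs, F for its rank was 47.1, against 23.9 with 9716 peaks (adjusted p = 0.105 by permutation) and 1.45 with ranking by fold (adjusted p = 0.0698 by permutation). The paralogue difference of 5923 places was 220 with 9716 peaks, 3759 with a 50% overlap, 460 with ranking by fold, 2337 with equal covered length and 11040 in run E alone, where the call was lost, and 5725 to 6122 with a library left out. Without ARID1A_DDX4, an alternative chosen after seeing the data, it was 7108 (exact permutation test, adjusted p = 0.0212). The paralogue difference in the share of gained sites was 26.9 percentage points, 89.6 with ranking by fold, over 2 gained sites, and 50 with 9716 peaks and with equal covered length, over 1 gained site each. Adjusted p ranged from 4e-05 to 0.105 for F of the rank and from 0.00635 to 1 for the paralogue difference over all alternatives (permutation and exact permutation tests). Both lowest values came from whole lists (F = 71.8 and a difference of 25560 places). There an uncalled site took the length of its own list plus 1 as its rank, so list length enters these values. Replicate numbers were not taken as pairs, since the labels give no pairing: with a replicate block F for the rank stayed at 47.1 (permutation p = 0.00055), and libraries numbered 2 alone gave a paralogue difference of 5547 (exact permutation test, adjusted p = 0.0762). For 9716 peaks and equal covered length, F for the share of gained sites could not be given, because 1 site was left. The cause of these changes was not tested. The unknown depth limits all calls: a site below the common length may be accessible.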
